A study of Mus musculus with 8 samples.

Results

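The melanocyte pigment genes described here are 10 genes of the pigment cell lineage, Pmel, Dct, Tyr, Tyrp1, Mlana, Sox10, Mitf, Kit, Slc45a2 and Oca2. They were chosen by name, and all 10 were found among the 26200 genes that the authors' 2 deposited tables share. RNA was measured in cells labelled hair matrix keratinocytes, sorted by flow cytometry from the skin of mice at postnatal day 4.5. The wild type (WT) animals were compared with animals labelled as Tet2/Tet3 double knockout (DKO) with Krt14-Cre, in which the recombinase is driven by the promoter of a keratin gene of basal keratinocytes. Both genotypes were taken untreated, or after 50 µg of 5-aza, an inhibitor of DNA methyltransferases, had been given by subcutaneous injection at day 2.5. Each of the 4 groups had 2 libraries, and the labels do not say whether these came from separate animals. The p-values measure the spread between these libraries, which after 5-aza may be technical. Whether Krt14-Cre acted in melanocytes, which pigment gene alleles the mice carried, and which markers the sort used were not given.

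Melanocytes are neural crest cells that settle in the hair bulb among the matrix keratinocytes and hand them melanin during hair growth. They build melanin in a dedicated organelle, the melanosome: Pmel forms its fibrils, Tyr, Tyrp1 and Dct are the enzymes of melanin synthesis, and Slc45a2 and Oca2 are membrane transporters that the pigment reaction needs. Mitf is the transcription factor at the head of the programme, Sox10 lies upstream of it, and Kit is the receptor through which Kit ligand sustains the lineage. Keratinocytes are not known to make melanin, so RNA of these genes in a keratinocyte sort is read here as a measured level and is not assigned to a cell. In such bulk samples fewer cells of a type and less RNA per cell cannot be told apart.

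Mitf binds the E-box CATGTG, and this motif is shown here as background. Whether it had a part in the pigment gene levels was not tested. RefSeq promoters of build GRCm38.p6 were matched for 6 of the 10 genes, and 4 of these held the motif on either strand (CATGTG or its reverse complement CACATG) within 250 bases upstream of the start site. By window, since Mitf has 3 and Kit 2, 4 of 9 held it, against 12.3% of all 32851 such windows, and none of those of Mitf and Kit did. The sequences run 5′ to 3′ on the gene's strand, with the motif in capitals, and positions are counted back from the start site at -1.
Tyr, chr7:87493513-87493612, minus strand, motif from -21 to -16: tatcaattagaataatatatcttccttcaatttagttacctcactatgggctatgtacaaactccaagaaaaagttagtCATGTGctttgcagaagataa
Tyrp1, chr4:80834113-80834212, plus strand, motif from -46 to -41: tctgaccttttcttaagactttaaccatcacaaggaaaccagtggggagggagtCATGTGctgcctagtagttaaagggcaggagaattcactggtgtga
Dct, chr14:118052347-118052496, minus strand, motifs from -232 to -227 and from -150 to -145: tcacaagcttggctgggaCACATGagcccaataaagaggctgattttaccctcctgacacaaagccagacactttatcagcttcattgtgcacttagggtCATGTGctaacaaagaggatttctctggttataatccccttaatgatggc
Oca2, chr7:56239509-56239608, plus strand, motif from -186 to -181: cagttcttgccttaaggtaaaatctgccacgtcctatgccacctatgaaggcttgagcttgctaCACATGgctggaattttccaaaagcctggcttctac
A match is a run of letters and not a binding site, and no binding was measured here. The deposited Tyrp1 gene starts at 80834123, upstream of the RefSeq start, so most of its window, with the motif, lies inside that gene.

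Values are FPKM, reads divided by gene length and by the library's total reads, given per library or as mean ± SD with n = 2 libraries. Where 2 values are given for a group, replicate 1 comes first. Listed genes held 11825515 to 23512270 reads per library, and single pigment genes held from 20 to 12385 reads. Tet3, named in the DKO label, was 10.4 to 11.8 FPKM in the 4 WT libraries and 5.99 to 7.31 FPKM in the 4 DKO libraries. Tet2 was 1.81 to 3.28 and 1.56 to 2.72 FPKM, over the whole gene in each case. Of 10 matrix keratinocyte markers, 9 were listed, with a summed level of 461 to 1074 FPKM per library, against 23.1 to 147.6 FPKM for the 10 pigment genes. In the untreated groups replicate 1 held Xist, the RNA of the inactive X chromosome, at 82.1 (WT) and 74.4 FPKM (DKO), and replicate 2 at 0.327 and 1.19 FPKM. The Y-linked Ddx3y was the other way round, at 0.0155 and 0.0755 FPKM in replicate 1 and 3.50 and 2.90 FPKM in replicate 2. The untreated libraries of a group were thus not repeats of the same RNA, and the replicate number there goes with this difference. Each library after 5-aza held both. Xist was 16.9 and 23.1 FPKM in WT and 4.60 and 3.65 FPKM in DKO there. Ddx3y was 1.24 and 0.917 FPKM in WT and 2.08 and 2.00 FPKM in DKO. After 5-aza these levels thus went with genotype, and a different mix of sexes cannot be told apart from genotype there. Whether animals were pooled was not given. Listed genes took 55.8% to 62.0% of the library total untreated and 38.4% to 42.4% after 5-aza. The 2 tables come from separate comparisons and differ in this share, so no test was made between untreated and 5-aza libraries.

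All 10 pigment genes were detected in all 8 libraries. In the untreated libraries the structural protein Pmel stood highest in FPKM and the transcription factors Mitf and Sox10 lowest, an order that depends in part on gene length, as given below. After 5-aza, 1 library of each genotype, WT replicate 1 and DKO replicate 2, held several times more of nearly every pigment gene than its partner. The higher library was thus not of 1 genotype, and no pigment gene differed between DKO and WT past the adjusted threshold in either condition.

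**Figure D1:**
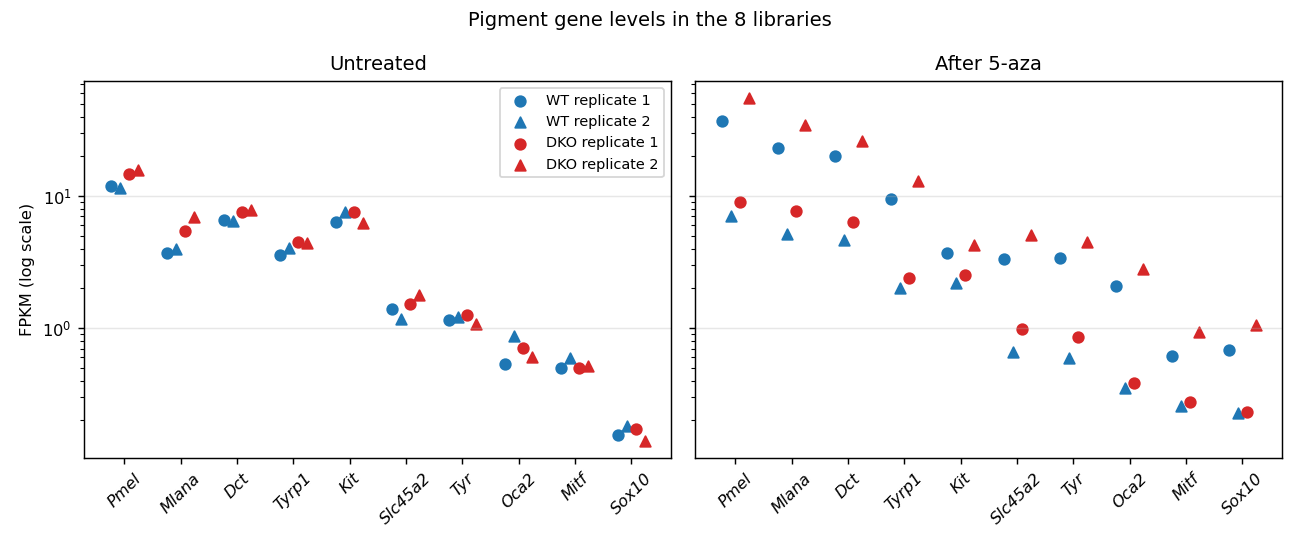
FPKM (log axis) of the 10 pigment genes in the 4 untreated libraries (left) and the 4 libraries after 5-aza (right). Each point is 1 library; WT in blue, DKO in red, circles for replicate 1 and triangles for replicate 2. Untreated libraries lie close together for each gene, while after 5-aza WT replicate 1 and DKO replicate 2 lie above the other libraries for all 10 genes, for Pmel at 36.9 and 55.1 against 7.06 and 9.07 FPKM.

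Among the melanosome proteins, Pmel (ENSMUSG00000025359, chromosome 10, 128704195 to 128720238, plus strand) was 11.9 and 11.5 FPKM in WT and 14.6 and 15.8 FPKM in DKO without treatment. After 5-aza it was 36.9 FPKM in WT replicate 1 and 7.06 FPKM in WT replicate 2, and 9.07 and 55.1 FPKM in DKO replicates 1 and 2. The untreated groups did not overlap, DKO being higher, whereas after 5-aza each genotype held 1 high and 1 low library. Mlana, a small melanosomal membrane protein known as an antigen of melanocytes (ENSMUSG00000024806, chromosome 19, 29697921 to 29708448, plus strand), was 3.68 and 3.98 FPKM in WT and 5.39 and 6.96 FPKM in DKO without treatment. After 5-aza it was 22.9 and 5.19 FPKM in WT and 7.70 and 34.6 FPKM in DKO replicates 1 and 2. Its order of libraries was that of Pmel in both conditions but for the untreated WT libraries, which stood in the other order. The Pmel gene overlaps Cdk2 by 837 bases and Dgka by 105 bases on the other strand, and the strand setting of the counting was not given. Cdk2 was 2.99 to 3.77 FPKM after 5-aza and 4.03 to 4.55 FPKM in untreated libraries. Dgka was 8.26 and 8.64 FPKM in untreated WT and 10.2 and 11.1 FPKM in untreated DKO, with DKO higher as for Pmel. After 5-aza Dgka was 6.77 and 6.61 FPKM in WT and 9.38 and 8.81 FPKM in DKO. The part of reads of Cdk2 and Dgka in the Pmel values was not tested.

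The 3 enzymes of melanin synthesis behaved alike after 5-aza and less so without treatment. Tyr, tyrosinase, which catalyses the first step (ENSMUSG00000004651, chromosome 7, 87424771 to 87493512, minus strand), was 1.15 and 1.22 FPKM in WT and 1.26 and 1.07 FPKM in DKO without treatment. These groups overlapped. After 5-aza Tyr was 3.39 and 0.592 FPKM in WT and 0.861 and 4.498 FPKM in DKO. Tyrp1, an enzyme of later steps (ENSMUSG00000005994, chromosome 4, 80834123 to 80851719, plus strand), was 3.55 and 4.08 FPKM in WT and 4.49 and 4.38 FPKM in DKO without treatment, and then 9.49 and 2.00 FPKM in WT and 2.41 and 13.0 FPKM in DKO after 5-aza. Dct, dopachrome tautomerase (ENSMUSG00000022129, chromosome 14, 118012790 to 118052244, minus strand), was 6.63 and 6.48 FPKM in WT and 7.60 and 7.77 FPKM in DKO without treatment. Its values after 5-aza were 19.9 and 4.62 FPKM in WT and 6.32 and 26.3 FPKM in DKO. For Tyrp1 and Dct the untreated DKO libraries lay above both WT libraries, by less than 1 FPKM in means of 4.44 ± 0.0778 against 3.81 ± 0.370 and 7.69 ± 0.123 against 6.56 ± 0.104 FPKM. An annotated antisense transcript, 4930435M08Rik, lies across 1891 bases of the Dct gene, so reads of this pair cannot be told apart without strand.

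The transporters followed the same order of libraries after 5-aza. Slc45a2 (ENSMUSG00000022243, chromosome 15, 11000721 to 11029233, plus strand) was 1.40 and 1.18 FPKM in WT and 1.53 and 1.79 FPKM in DKO without treatment. It was 3.34 and 0.660 FPKM in WT and 0.978 and 5.08 FPKM in DKO after 5-aza. Oca2 (ENSMUSG00000030450, chromosome 7, 56239760 to 56536518, plus strand) was 0.531 and 0.869 FPKM in WT and 0.706 and 0.607 FPKM in DKO without treatment. After 5-aza it was 2.07 and 0.355 FPKM in WT and 0.385 and 2.82 FPKM in DKO. Oca2 was the member with the widest gap between untreated libraries of a group, 1.63-fold in WT, and the widest after 5-aza, 7.32-fold in DKO. An antisense gene, Gm44506, overlaps it by 965 bases.

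The regulators were low in FPKM, for which their gene lengths exceed their joined exons. Mitf (ENSMUSG00000035158, chromosome 6, 97807052 to 98021349, plus strand) was 0.496 and 0.591 FPKM in WT and 0.494 and 0.515 FPKM in DKO without treatment, and 0.612 and 0.255 FPKM in WT and 0.274 and 0.941 FPKM in DKO after 5-aza. Sox10 (ENSMUSG00000033006, chromosome 15, 79154908 to 79165240, minus strand) was 0.155 and 0.180 FPKM in WT and 0.172 and 0.140 FPKM in DKO without treatment, from 20 to 30 reads per library. After 5-aza it was 0.686 and 0.227 FPKM in WT and 0.232 and 1.05 FPKM in DKO. Both regulators overlapped between genotypes in both conditions. Sox10 is also a gene of Schwann cells, and Mitf and Kit are also genes of mast cells.

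Kit differed from the other members in its size of change. It encodes the receptor tyrosine kinase for Kit ligand (ENSMUSG00000005672, chromosome 5, 75574916 to 75656722, plus strand). Its level was 6.40 and 7.63 FPKM in WT and 7.56 and 6.24 FPKM in DKO without treatment. It was 3.67 and 2.19 FPKM in WT and 2.52 and 4.24 FPKM in DKO after 5-aza. The untreated genotypes overlapped over most of their ranges, and after 5-aza the same libraries as for the other genes were the higher ones. The 4 libraries after 5-aza all lay below the 4 untreated ones in the deposited FPKM, a description across tables that differ in the share of listed genes.

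The order of the members by mean FPKM of the 4 untreated libraries was Pmel (13.5), Dct (7.12), Kit (6.96), Mlana (5.00), Tyrp1 (4.13), Slc45a2 (1.47), Tyr (1.17), Oca2 (0.678), Mitf (0.524) and Sox10 (0.162 FPKM). Of the neighbours in this order, Dct and Kit, Kit and Mlana, Mlana and Tyrp1, Slc45a2 and Tyr, and Oca2 and Mitf overlapped in range over the libraries. Within libraries Oca2 was nevertheless above Mitf in all 4, while the order of the other 4 of these pairs changed from library to library. After 5-aza the order was Pmel (27.0), Mlana (17.6), Dct (14.3), Tyrp1 (6.72), Kit (3.16), Slc45a2 (2.51), Tyr (2.33), Oca2 (1.41), Sox10 (0.549) and Mitf (0.520 FPKM), and every pair of neighbours overlapped in range, because each range joins high and low libraries. Within each of the 4 libraries Pmel was above Mlana, Mlana above Dct and Dct above Tyrp1. The length behind the FPKM was 0.585 to 2.78 times the joined exon length in GENCODE M21, so the order between genes depends on it. Per kilobase of joined exons Kit was second in untreated libraries at 14.8, behind Pmel at 19.9, and Tyrp1, Dct and Mlana followed at 10.1, 9.76 and 2.93. Mitf, at 1.46, was then level with Slc45a2 and Tyr at 1.47 each, and Sox10 stayed lowest at 0.388. On that scale Mitf was 1.45 and Sox10 1.32 after 5-aza, the other order from FPKM.

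The libraries of a group were then compared with each other, with reads recovered from the FPKM and 95% counting intervals that cover counting error alone. In untreated libraries the ratio of replicate 1 to replicate 2 ranged from 0.612 to 1.18 in WT and from 0.775 to 1.23 in DKO over the 10 genes. None of the 10 was past 2-fold in either genotype, against 7.29% of all tested genes in WT and 4.42% in DKO. After 5-aza, replicate 1 of WT was above replicate 2 by a median of 4.58-fold, from 1.68-fold for Kit to 5.84-fold for Oca2. Replicate 2 of DKO was above replicate 1 by a median of 4.86-fold, from 1.68-fold for Kit to 7.32-fold for Oca2. Over all 16856 tested genes these ratios had medians of 1.03 and 0.986. Past 2-fold were 9 of 10 members in WT, where 6.59% of tested genes were, and 9 of 10 in DKO, where 6.13% were. Both ratios were past 2-fold in 9 of 10 pigment genes, all but Kit, against 3.16% of all tested genes, and past 4-fold in 7 of 10 against 0.409%. These thresholds and the choice of the 2 higher libraries were set after the values were seen, and 1 library stands on each side of each ratio, so no test was made.

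**Figure D2:**
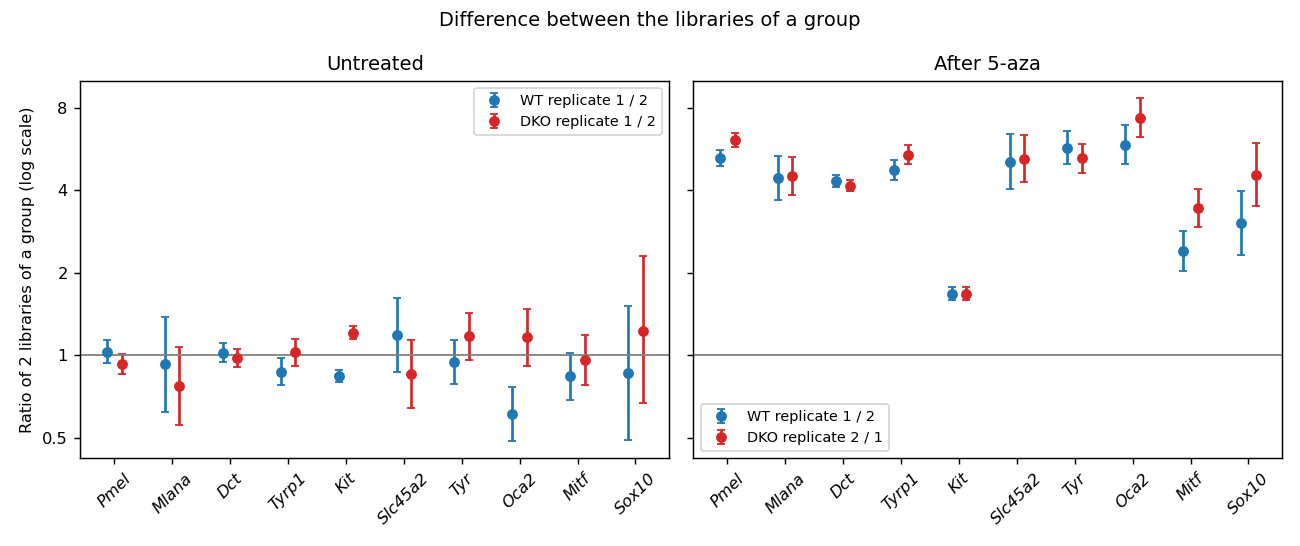
Ratio between the 2 libraries of a group (log axis) for each pigment gene, untreated on the left and after 5-aza on the right; WT in blue and DKO in red, bars are 95% counting intervals from recovered reads. Untreated ratios lie around 1, from 0.612 to 1.23, whereas after 5-aza 9 genes lie above 2-fold in both genotypes and Kit at 1.68-fold in both.

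Counting error was small beside these gaps. Pmel had 5885 and 1093 reads in the WT libraries after 5-aza, a ratio of 5.23 with an interval of 4.90 to 5.58. In DKO it had 10872 and 1211 reads in replicates 2 and 1, a ratio of 6.08 (5.73 to 6.45). Sox10, the member with the fewest reads, had 237 and 76 reads in WT, a ratio of 3.03 (2.33 to 3.97), and 449 and 67 reads in DKO, a ratio of 4.54 (3.50 to 5.95). Mitf had ratios of 2.40 (2.03 to 2.84) and 3.44 (2.94 to 4.05). Kit, with 3277 and 1894 reads in WT, had a ratio of 1.68 (1.59 to 1.78), and its interval lay below that of every other member in both genotypes. Reads without molecular identifiers are not independent molecules, so the intervals are lower limits of the error. Library totals were 47176950 and 45812306 reads for WT replicates 1 and 2, and 58353167 and 39493929 for DKO replicates 2 and 1, so the higher library was also the deeper one in both pairs. FPKM is scaled to these totals, and the part of depth in the gaps was not tested.

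Levels were also expressed as a percentage of Pmel in the same library, which cancels the library total. After 5-aza the percentage of Tyr was 9.18 and 8.40 in WT and 9.50 and 8.16 in DKO, a 1.16-fold range over libraries in which Tyr itself ranged from 0.592 to 4.498 FPKM. Slc45a2 ranged from 9.05% to 10.8%, Tyrp1 from 23.6% to 28.4%, Oca2 from 4.25% to 5.61%, Mlana from 62.2% to 84.9% and Dct from 47.7% to 69.7%. Tyr, Slc45a2, Tyrp1 and Oca2 thus kept within a 1.16- to 1.32-fold range relative to Pmel whether the library was high or low. Mlana was 62.2% and 73.6% in WT and 84.9% and 62.8% in DKO, lower in the high libraries. Dct was 54.0% and 65.5% in WT and 69.7% and 47.7% in DKO, a 1.46-fold range in that same direction. Kit changed most: it was 9.96% and 31.0% of Pmel in WT and 27.8% and 7.69% in DKO, a 4.03-fold range, lowest in the libraries where Pmel was highest. Mitf spanned 2.18-fold and Sox10 1.73-fold in the same direction. In untreated libraries Kit was 39.6% to 66.2% of Pmel, above each value after 5-aza, and Mlana was 31.0% to 44.1%, below each value after 5-aza. Tyr was 6.80% to 10.5% of Pmel there, a range that holds the values after 5-aza.

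**Figure D3:**
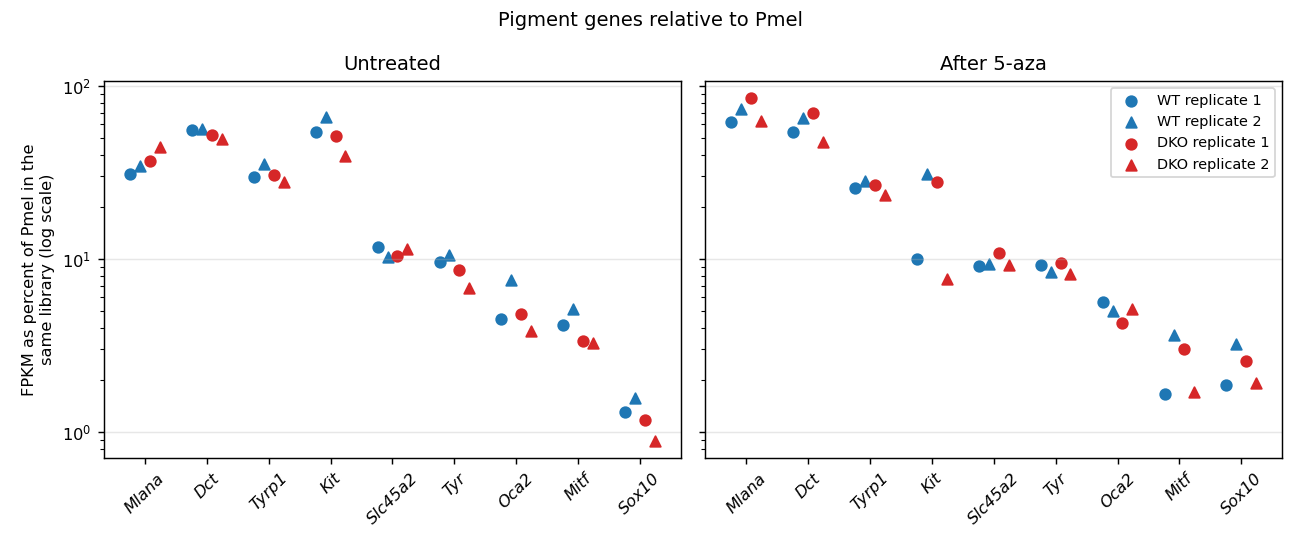
FPKM of 9 pigment genes as a percentage of Pmel in the same library (log axis), untreated on the left and after 5-aza on the right. Points are single libraries, coloured and shaped by genotype and replicate. Tyr, Slc45a2 and Tyrp1 spread over 1.16- to 1.20-fold after 5-aza, while Kit spreads over 4.03-fold.

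To set the tables side by side, reads were divided by gene length and by the reads in the 26200 shared genes, in the units of FPKM. On this scale Pmel was 21.4 and 18.6 in untreated WT, 24.3 and 26.1 in untreated DKO, 95.2 and 18.7 in WT after 5-aza, and 21.8 and 138.4 in DKO after 5-aza. For Pmel the lower library of each genotype after 5-aza thus lay within the joint range of the untreated libraries, and the higher one several-fold above it. The lower DKO library lay below both untreated DKO libraries. Not all members were alike in this. The lower libraries of Mlana, at 13.8 in WT and 18.5 in DKO, lay above its untreated range of 6.42 to 11.5. Those of Sox10, at 0.601 and 0.557, lay above its untreated range of 0.231 to 0.290. Tyrp1 was 6.37 to 7.47 in the untreated libraries and 5.31, 5.80, 24.5 and 32.6 in WT replicate 2, DKO replicate 1, WT replicate 1 and DKO replicate 2 after 5-aza. Kit was 10.3 to 12.6 in untreated libraries and 5.80 to 10.6 after 5-aza, where DKO replicate 2, at 10.6, was the 1 library inside the untreated range. Whether the library kits or other steps differed between the tables was not given, and no test was made.

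Markers of other cells were read in the same libraries. Of 10 dermal papilla markers, genes of the mesenchymal cells at the core of the hair bulb, all 10 were higher in WT replicate 1 than in replicate 2 and in DKO replicate 2 than in replicate 1 after 5-aza, against 35.4% of tested genes. Their median ratios were 2.25 and 2.07, below those of the pigment genes, and their summed level was 77.2 and 34.7 FPKM in WT replicates 1 and 2 and 29.4 and 59.2 FPKM in DKO replicates 1 and 2. Wif1, a secreted Wnt inhibitor, was 19.8 and 8.64 FPKM in WT and 9.75 and 20.0 FPKM in DKO, Hhip was 9.02 and 4.15 and then 3.88 and 8.08 FPKM, and Vcan was 10.6 and 5.95 and then 3.87 and 5.13 FPKM. Of 12 Schwann cell markers, 9 were higher in both of those libraries and 2 past 2-fold in both, and the summed level was 20.2 to 26.3 FPKM. Erbb3, a neuregulin receptor on that list, was 13.2 and 14.3 FPKM in WT and 20.3 and 18.8 FPKM in DKO, the other order of libraries from Sox10. Gfra3, a receptor for artemin, was 0.833 and 1.10 FPKM in WT and 1.71 and 1.31 FPKM in DKO, also in that other order. S100b, a calcium-binding protein of Schwann cells, had the order of the pigment genes, at 2.02 and 0.958 FPKM in WT and 0.376 and 0.648 FPKM in DKO. Untreated, S100b was 6.48 and 5.78 FPKM in WT against 2.07 and 2.25 FPKM in DKO (adjusted p = 0.0831, limma). Of 9 listed matrix keratinocyte markers, 6 were higher in both libraries and 0 past 2-fold in both. Their summed level was 498 and 461 FPKM in WT and 682 and 721 FPKM in DKO. Krt5 and Krt14, the keratin pair of basal keratinocytes, had ratios between libraries of 1.18 and 1.10 and of 1.46 and 1.34, and Dlx3, a transcription factor of the hair matrix, had ratios of 0.804 and 0.768. The part of dermal papilla cells, or of any other cell type, in the pigment gene levels was not tested.

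Mast cell markers were low after 5-aza. Hdc, the histidine decarboxylase that makes histamine, was the only one of the list that could be tested there. It was 0.0482 and 0.0313 FPKM in WT and 0.406 and 0.316 FPKM in DKO, with an adjusted p of 0.305 (limma), and is named after its values were seen. Cpa3, a mast cell carboxypeptidase, had 0 reads in both WT libraries, Mcpt4, a mast cell protease, was at 0.155 FPKM or less in each library, and the list summed to 0.0511 to 0.723 FPKM over 6 listed genes of 10. Untreated, the same list summed to 0.450 and 1.30 FPKM in WT and 3.00 and 2.68 FPKM in DKO, with Cma1, a mast cell chymase, at 0.102 and 0.265 FPKM and 0.982 and 0.975 FPKM. Cma1 had an adjusted p of 0.117 over all genes (limma). The untreated Kit libraries overlapped between genotypes, and the part of mast cells in the Kit values was not tested.

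**Figure D4:**
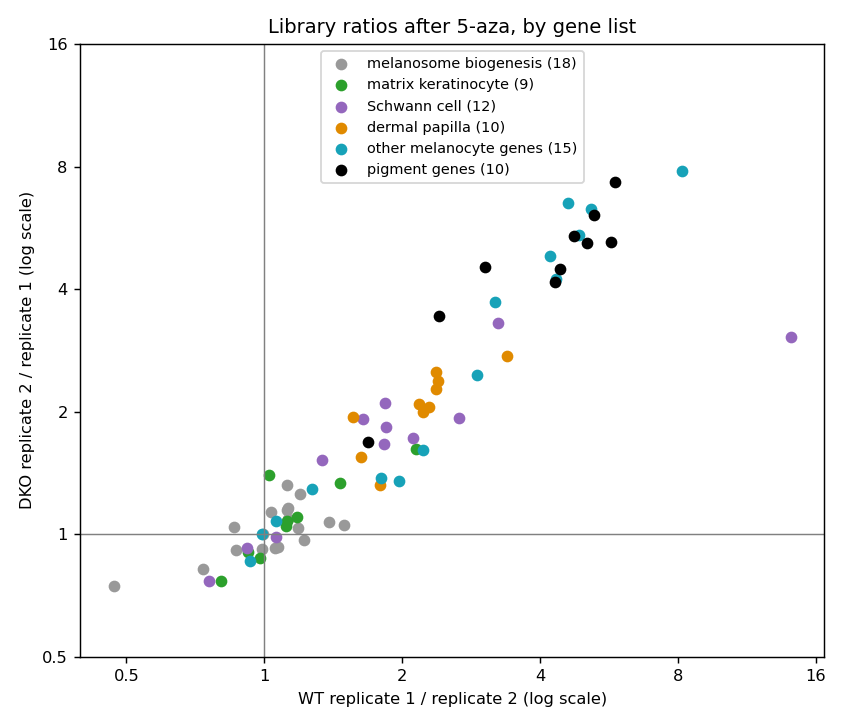
Ratio of WT replicate 1 to replicate 2 (horizontal) against DKO replicate 2 to replicate 1 (vertical) after 5-aza, both on log axes. Each point is 1 tested gene, coloured by gene list with the number of genes in brackets. Pigment genes lie from 1.68 up to 7.32 together with several other melanocyte genes, dermal papilla markers lie around medians of 2.25 and 2.07, and matrix keratinocyte and melanosome biogenesis genes lie mostly near 1.

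Other genes of the pigment lineage were taken from a fixed list of 16, of which 15 were tested in each table. After 5-aza 13 of 15 were higher in both WT replicate 1 and DKO replicate 2, and 8 were past 2-fold in both, with median ratios of 2.91 and 2.46. These 8 were Slc24a5, Gpr143, Trpm1, Pax3, Mc1r, Ednrb, Rab27a and Mlph. Ednrb, the endothelin receptor of melanoblasts, was 2.11 and 0.486 FPKM in WT and 0.693 and 2.94 FPKM in DKO after 5-aza, and 5.15 and 13.5 FPKM in untreated WT, where the 2 libraries already differed more than any pigment gene did. Gpnmb, a glycoprotein of melanosomes that macrophages also make, was 16.8 and 9.36 FPKM in WT and 21.7 and 29.8 FPKM in DKO. Tfap2b, a transcription factor, was 5.85 and 6.27 FPKM in WT and 6.92 and 5.96 FPKM in DKO, so it did not share the order. With limma, 0 of the 15 passed over all genes in either condition, the lowest adjusted p being 0.309 untreated and 0.508 after 5-aza. At an unadjusted p under 0.05, 2 were higher in DKO untreated and 1 after 5-aza, where 6.72% and 6.64% of all tested genes were.

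Genes of melanosome biogenesis, which encode trafficking complexes used by lysosome-related organelles in many cells, did not share the pattern. Of 18 tested after 5-aza, 9 were higher in both libraries, 0 were past 2-fold in both, and the median ratios were 1.10 and 1.04. Bloc1s2, the highest of them, was 8.69 and 7.13 FPKM in WT and 9.75 and 9.42 FPKM in DKO, and Atp6ap2 was 5.10 and 4.93 FPKM and 5.12 and 5.79 FPKM. Vps33a was 4.21 and 4.86 FPKM and 5.30 and 4.85 FPKM. None of the list passed over all genes in either table with limma. At an unadjusted p under 0.05, 3 were higher in DKO untreated and 1 after 5-aza, where 6.72% and 6.64% of all tested genes were.

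The signals that melanocytes receive were read from 10 genes, of which 9 were listed. Kitl, the ligand of Kit, was 6.66 and 9.82 FPKM in WT and 12.4 and 14.4 FPKM in DKO without treatment, and 7.64 and 6.67 FPKM in WT and 12.0 and 10.2 FPKM in DKO after 5-aza. The genotypes did not overlap in either condition, but neither difference passed over all genes (adjusted p = 0.338 untreated and 0.381 after 5-aza, limma). Edn3, the ligand of Ednrb, was 10.2 and 10.4 FPKM in WT and 7.42 and 8.17 FPKM in DKO without treatment (adjusted p = 0.288, limma). After 5-aza Edn3 was 3.97 and 1.56 FPKM in WT and 0.830 and 2.00 FPKM in DKO, higher in the same libraries as the pigment genes, and it was the 1 of 7 tested genes of its list past 2-fold in both ratios. Foxn1, a keratinocyte factor known to direct pigment transfer, was 3.72 and 3.31 FPKM in WT and 7.08 and 8.10 FPKM in DKO without treatment (adjusted p = 0.117, limma). It was 5.47 and 7.52 FPKM in WT and 10.5 and 8.68 FPKM in DKO after 5-aza. Neither Kitl nor Foxn1 shared, in both genotypes, the order of libraries of the pigment genes after 5-aza.

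The next comparison asked whether the pigment genes differed between DKO and WT without treatment. The log2(FPKM + 1) difference, taken as DKO minus WT, was fitted with limma over the 17339 genes that passed the filter on low values, with two-sided p-values adjusted by Benjamini-Hochberg. All 10 members passed the filter, and 0 of 10 passed an adjusted p of 0.05, where 0.00577% of all tested genes did. Mlana differed by 0.56 ± 0.13 (SE; adjusted p = 0.268), a mean of 6.18 ± 1.11 FPKM in DKO against 3.83 ± 0.207 FPKM in WT. Pmel differed by 0.35 ± 0.09 (adjusted p = 0.304), a mean of 15.2 ± 0.790 FPKM against 11.7 ± 0.265 FPKM. These 2 had an unadjusted p under 0.05 (0.00925 and 0.0147, limma), where 6.72% of all genes did with DKO higher and 4.73% with DKO lower, and Mlana rested on 52 to 84 reads per library. Without DKO replicate 1 or replicate 2, Pmel had an unadjusted p of 0.0711 or 0.139 (limma).

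The DKO libraries lay above both WT libraries for 5 members, Pmel, Mlana, Dct, Tyrp1 and Slc45a2, and below them for 0, where 24.1% of all tested genes were wholly higher in DKO and 19.3% wholly lower. Dct differed by 0.20, Slc45a2 by 0.22 and Tyrp1 by 0.18, with adjusted p of 0.461, 0.517 and 0.559 (limma). The other 5, Tyr, Kit, Oca2, Sox10 and Mitf, had differences between -0.04 and -0.01, with 95% intervals that reached from -0.37 to 0.33. For genes as low as Sox10, Mitf and Oca2 the added 1 FPKM shrinks both the difference and the interval. With a pseudocount of 0.1 they differed by -0.07 ± 0.18, -0.09 ± 0.18 and -0.05 ± 0.26 (SE). The median over the members was 0.08, against 0.01 over all tested genes, and 5 of 10 were positive against 53.8% of all genes. In the authors' deposited table, none of the 10 had an adjusted p under 0.05, where 1.28% of its genes did. Its lowest adjusted p among them was that of Pmel, 0.540, with a log2 difference of 0.35 ± 0.15.

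Markers of other cells were set beside these genotype differences. Of 10 dermal papilla markers 7 were lower in DKO at an unadjusted p under 0.05 (limma), with sums of 288 and 245.5 FPKM in WT and 200.8 and 185.9 FPKM in DKO, and the matrix keratinocyte markers summed to 544 and 701 FPKM in WT and 963 and 1074 FPKM in DKO, with 3 of 9 higher. Unadjusted, 2 of 5 mast cell markers were higher, 2 of 10 Schwann cell markers were higher and 2 lower, and 3 of 8 ligand and niche genes were higher and 3 lower. Over all tested genes 6.72% were higher and 4.73% lower. After 5-aza the unadjusted counts were 5 of 9 higher for the matrix keratinocyte markers, 3 of 7 for the ligands, 2 higher and 2 lower of 12 Schwann cell markers, 1 of 1 for mast cells and 0 of 10 for the dermal papilla. The shares over all genes were then 6.64% higher and 2.3% lower. In each list and condition 0 genes passed over all genes, and the part of these cells in the pigment gene values was not tested.

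After 5-aza the same contrast gave wide intervals, and Xist and Ddx3y also parted the genotypes there, as given above. In limma 0 of 10 members passed over the 16856 genes tested, as did 0% of all genes. At an unadjusted p under 0.05 the count was also 0, where 6.64% of all genes passed with DKO higher and 2.30% with DKO lower. All 10 differences were positive, against 62.8% of all genes, with a median of 0.29 against 0.03. The share over all genes was 48.8% with median-ratio scaling and 43.9% with scaling to listed reads, and under both all 10 members stayed positive. Pmel differed by 0.44 ± 1.13 (SE, limma), with a 95% interval from -2.57 to 3.46. Its means of 32.1 ± 32.6 FPKM in DKO and 22.0 ± 21.1 FPKM in WT each joined a high and a low library. Kit differed by 0.15 ± 0.28 and Mitf by 0.14 ± 0.24. The added 1 FPKM shrinks the differences and errors of low genes such as Mitf, so these values are not on an equal footing. With a pseudocount of 0.1 Kit differed by 0.20 ± 0.35 and Mitf by 0.31 ± 0.61. For each of the 10 genes the genotypes overlapped, where 28% of all tested genes were wholly higher in DKO and 11.6% wholly lower. Without DKO replicate 2 the difference of Pmel was -0.80, and without WT replicate 2 it was -0.67. Without WT replicate 1 it was 1.56 and without DKO replicate 1 it was 1.68. All 10 members turned negative without either replicate 2, so the direction followed which library was left out. In the deposited values of the authors, none of the 10 had an adjusted p under 0.05 after 5-aza, where 0.708% of the listed genes did.

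**Figure D5:**
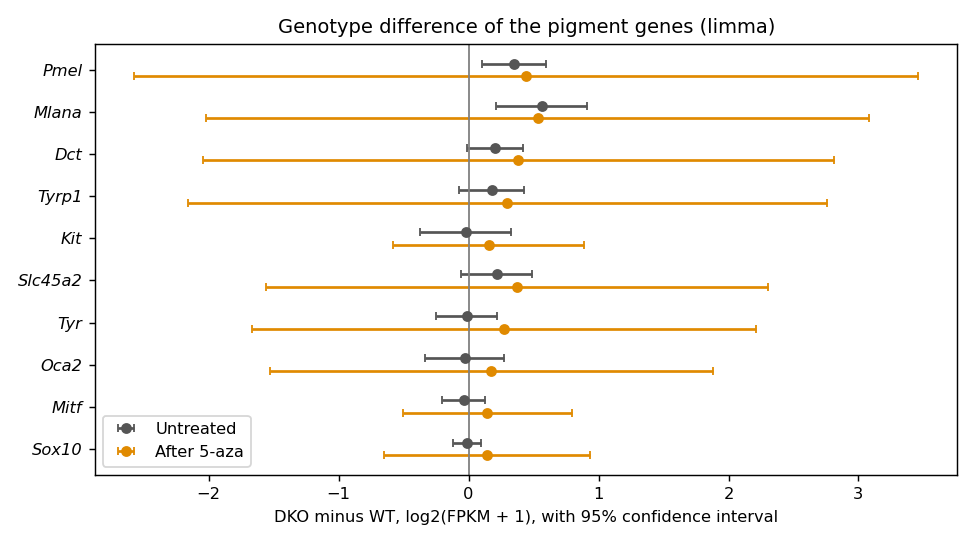
DKO minus WT difference in log2(FPKM + 1) for each pigment gene, untreated in grey and after 5-aza in orange; points are limma estimates from 2 libraries per group and bars are 95% confidence intervals. The intervals of Pmel and Mlana lie above 0 without treatment, before adjustment over genes, and all intervals after 5-aza include 0.

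Whether the genotype difference itself differed between the conditions was asked with the interaction over 8 libraries. None of the 10 members passed (limma, adjusted p from 0.973 to 0.999), where 0.027% of 18505 genes did, and 0 had an unadjusted p under 0.05, where 3.05% of genes did with a positive and 3.04% with a negative estimate. The largest estimate was that of Tyr, 0.29, with a 95% interval from -1.77 to 2.35, and Mlana had the 1 negative estimate, -0.03. Over the members the intervals reached from -3.10 to 3.29.

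Likeness between genes was described over the 8 libraries as Pearson's r of log2(FPKM + 1), each gene centred within its table, against the mean of the 10 members. The libraries of 1 table share their processing, and r rests mainly on WT replicate 1 and DKO replicate 2 after 5-aza, so it is given without a p. Against the mean of the other 9, Tyrp1 had 0.998, Pmel and Dct 0.996 each, Tyr and Slc45a2 0.990 each, Oca2 0.978, Sox10 0.976, Mlana 0.970, Mitf 0.960 and Kit 0.919. Over the 4 untreated libraries alone, the same measure was 0.957 for Tyrp1, 0.870 for Dct and 0.830 for Pmel, but -0.22 for Sox10 and Mitf, -0.12 for Tyr and -0.05 for Kit. It was 0.789 for Mlana, 0.565 for Slc45a2 and 0.0297 for Oca2. Across the untreated libraries 5 members thus followed the others in part, and the other 5 did not. The 5 that followed were those higher in both DKO libraries, but both readings use the same 4 libraries and are not separate results. Of 15699 genes compared, 106 others had an r over 0.9, and the 10 other genes most like the members were Irf4 (0.997), Trpm1 (0.995), Ptgds (0.994), Tspan10 (0.992), Slc24a5 (0.992), Mxd4 (0.991), Mcoln3 (0.990), Gpr143 (0.988), Bace2 (0.987) and Nrcam (0.984). Ptgds was 4.95 and 1.11 FPKM in WT and 1.26 and 6.95 FPKM in DKO after 5-aza, and 0.818 and 0.760 FPKM and 1.23 and 1.08 FPKM in the untreated groups. Mxd4 spanned a narrower range, 1.57 to 2.53 FPKM after 5-aza.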

How the data were processed

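Per the submitters' processing notes, the tools were DESeq2, HTSeq, STAR and Trim Galore and the builds mm10 and GRCm38; versions were not given in the sources used here. The labels and the design text name different library kits, one for mRNA and one for ribosome-depleted RNA, without tying either to a group. The authors deposited 2 tables, DKO with WT untreated and after 5-aza. Library columns hold FPKM, a unit not named in the authors' headers; every value times length was a whole multiple of 1 step, which gave the reads and totals. Per the file headers, the deposited length is in bases (unit other), baseMean is a signal value of scaled reads, the fold changes and errors are log2 values (WT over DKO, reversed here), the statistic is a score, and the p-value columns hold p and adjusted p. Left out were 3 summary rows untreated, and 5 summary rows and 376 rows with no name after 5-aza.

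Tests used limma 3.58.1 in R 4.3.3 on log2(FPKM + 1) with a variance trend, within 1 table or, for the interaction, over both. They were also run on simulated reads whose libraries varied far less than those after 5-aza. That run therefore does not cover the 5-aza spread. A gene was tested if 2 or more libraries held 10 or more of its reads, scaled to the median library size, and all libraries together held 15 or more. Alternatives were a pseudocount of 0.1, no filter, median-ratio scaling, no trend, a replicate block and leaving out each library; scaling to listed reads and a crossed pairing were added after seeing the data. Named genes were all members, the 3 highest of each fixed list by mean FPKM, and the 10 most like the members; a few others, such as the 8 past 2-fold in both ratios, were named after their values were seen. The members and lists were chosen with earlier results of these data known. Same-numbered libraries had correlated deviations of 0.03 untreated and -0.59 after 5-aza, so the numbers were not taken as pairs.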

Additional observations from a re-analysis of the deposited data

How the results depend on the processing

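The count of 0 pigment genes past the adjusted threshold held in each comparison under every alternative run, among them the replicate block, where it was 0 as well. At an unadjusted p under 0.05 it was 2 untreated, 3 without the filter or without the trend, where Dct joined, and 1 without DKO replicate 1 or 2 (1 to 2 over the libraries left out). After 5-aza it was 0, but 6 with the crossed pairing as a block, which was chosen after seeing the data. Under that pairing 3090 of 16856 tested genes had an unadjusted p under 0.05 (limma), 2091 of them with DKO higher. Over all genes that pairing called 91 genes after 5-aza, where limma and the replicate block called 0. Untreated, 1 gene was called over all genes, 8 with a pseudocount of 0.1, 13 with the replicate block, 0 without the filter or the trend, and 0 to 1 without single libraries. The interaction called 5, 1 with a pseudocount of 0.1, 2 without the filter or the trend or with either other scaling, 0 with the replicate block, and 0 to 8 without single libraries; the cause was not tested. No member changed sign with another pseudocount, filter, scaling, trend or block. Leaving out 1 library turned signs, with these ranges of the log2 difference. Untreated: Tyr -0.074 to 0.049, Sox10 -0.035 to 0.0057, Mitf -0.081 to 0.0081, Kit -0.14 to 0.099, Oca2 -0.17 to 0.11. After 5-aza: Pmel -0.80 to 1.68, Dct -0.57 to 1.33, Tyr -0.51 to 1.06, Tyrp1 -0.72 to 1.32, Mlana -0.48 to 1.55, Sox10 -0.22 to 0.51, Mitf -0.16 to 0.45, Kit -0.13 to 0.44, Slc45a2 -0.44 to 1.18, Oca2 -0.56 to 0.91. Interaction: Pmel -1.14 to 1.33, Dct -0.77 to 1.13, Tyr -0.49 to 1.07, Tyrp1 -0.90 to 1.14, Mlana -1.05 to 0.99, Sox10 -0.21 to 0.53, Mitf -0.12 to 0.48, Kit -0.11 to 0.46, Slc45a2 -0.66 to 0.96, Oca2 -0.53 to 0.94. With 2 libraries a group, a lone library left in a group is assumed to vary like the other group. Depth limits Sox10 and Mlana in the untreated libraries, with 20 to 84 reads each.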

Other observations

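For 9 of the 10 pigment genes, the length behind the FPKM equalled the summed length of all annotated exons over all transcripts in GENCODE M21, less 1 base per exon, and this held for 97.6% of 29638 genes of the untreated table. Genes with many annotated transcripts are thus divided by a longer length than their joined exons: Mitf by 17218 bases against 6196, Kit by 18908 against 8911 and Oca2 by 10713 against 3961. Slc45a2, with 2976 against 2983, is nearly unaffected, and Mlana, whose coordinates differ from GENCODE M21, was divided by 618 bases. Ratios between libraries of the same gene do not contain this length.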
